A study of Mus musculus with 8 samples.

Results

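Stromal cells were selected from the liver and heart allograft libraries as cells that carried transcripts of connective tissue matrix genes and hardly any T cell transcripts. A cell was taken when it held at least 5 unique molecular identifiers (UMIs) of *Dcn*, *Col3a1*, *Col1a2*, *Col1a1* and *Mgp*, from at least 2 of these 5 genes, and at most 1 UMI of *Cd3d*, *Cd3e*, *Cd3g* and *Trac*. Before the rule, barcodes under 500 UMIs and those with a mitochondrial share over 10% were removed. It found 136 cells, called stromal cells below, among 29005 cells of 3 libraries, a share of 0.469% (95% exact binomial interval 0.394 to 0.554), out of 47541 such cells in all 8 libraries. There were 16 stromal cells among 9668 cells of the library labelled heart TIL (tissue-infiltrating lymphocytes), a share of 0.165% (0.0946 to 0.269). The library labelled liver TIL held 109 among 9337 cells (1.17%, 0.960 to 1.41), and the liver PC library (parenchymal cells) held 11 among 10000 cells (0.11%, 0.0549 to 0.197). Of these, 6, 32 and 0 cells held more UMIs of 9 immune genes (*Ptprc*, *Lyz2*, *C1qa*, *C1qb*, *C1qc*, *S100a8*, *S100a9*, *Cd79a* and *Jchain*) than of the 5 matrix genes, so "stromal cells" here names cells that met the rule.

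Organs of BALB/c mice were implanted into C57BL/6J recipients aged 8 weeks, no immunosuppressive drug was given, and the grafts were taken on day 7. The labels give BALB/c, male sex and an age of 8 weeks for every library, and stromal cells of donor and recipient were not told apart here. Each group was 1 library read by Microwell-seq, in which beads in small wells capture single cells, and the tissues came from 2 recipients of each organ, while how many of them went into a library is not given in the sources used here. TILs had been enriched on a density gradient after collagenase digestion, whereas PCs had not, and the part of this step in the shares of stromal cells given above was not tested. The question addressed was how stromal cells of these grafts differed in matrix, contractile, chemokine and acute phase genes.

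Stromal cells build the scaffold of an organ. Fibroblasts secrete fibrillar collagens and small proteoglycans, pericytes wrap capillaries, and hepatic stellate cells store retinoids in the liver. In injured tissue these cells are known to take on actin filaments of the smooth muscle type, to remodel the matrix with proteases and their inhibitors, to release chemokines that draw leukocytes, and to make acute phase and complement proteins that are otherwise known mainly as liver products.

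The libraries differed in ways that bear on every value below. The UMIs per library were 9306582 for the labelled heart TIL, 8543672 for the labelled liver TIL and 19171264 for liver PC, and the stromal cells held 18770, 107450 and 26513 of them. The median UMIs per stromal cell were 944 (range 546 to 2670), 820 (502 to 3406) and 2613 (899 to 4643) in that order. Any pair of the 8 libraries shared between 123 and 617 cell barcodes, and 3, 22 and 2 of the stromal barcodes also occurred in another library, but none of them was a stromal cell in both. Organ genes ran against the labels of the TIL libraries: 11 hepatocyte genes summed to 799 CPM (counts scaled to 1000000 UMIs) in the labelled heart TIL, 76.5 in the labelled liver TIL and 416 in liver PC, while 12 cardiomyocyte genes summed to 26.4, 221 and 29.9 CPM. The names "labelled heart TIL" and "labelled liver TIL" are therefore used throughout, and no direction between them is read as a direction between organs.

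Levels were summed over the stromal cells of a library and are given as CPM with exact 95% Poisson intervals, and ratios are on a log2 scale after 1 CPM was added. These intervals cover counting error only, because with 1 library per group there was no replicate and no test between groups. A gene counted as higher or lower when it differed at least 2-fold with at least 10 UMIs in the larger sum. Between the labelled liver TIL and the labelled heart TIL, 453 of 1773 genes (25.5%) were higher and 125 (7.05%) lower. Of the higher ones, 171 had no UMI in the labelled heart TIL, and with such genes set to the limit of 3 counts the number higher was 290 (16.4%). Between liver PC and the labelled liver TIL, 168 of 1788 genes (9.4%) were higher and 534 (29.9%) lower, and 427 (23.9%) were lower with genes at 0 set to the limit. Between liver PC and the labelled heart TIL, 125 of 514 genes (24.3%) were higher and 93 (18.1%) lower. These counts depended on depth. With summed profiles thinned to the smallest total, the labelled liver TIL had 69 higher and 63 lower than the labelled heart TIL, and liver PC had 81 and 92 against the labelled liver TIL. Since a single cell can carry a gene, list counts were also taken for genes that stayed past 2-fold when the cell with most of the gene's UMIs was left out of either library, a check added after the data were seen. No share over all genes is given for this check, so its counts cannot be set against a general share. The median log2 ratio over all genes counted was 0.20, -0.39 and 0.09 in these 3 comparisons, which is the shift against which each list should be read.

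**Figure D1:**
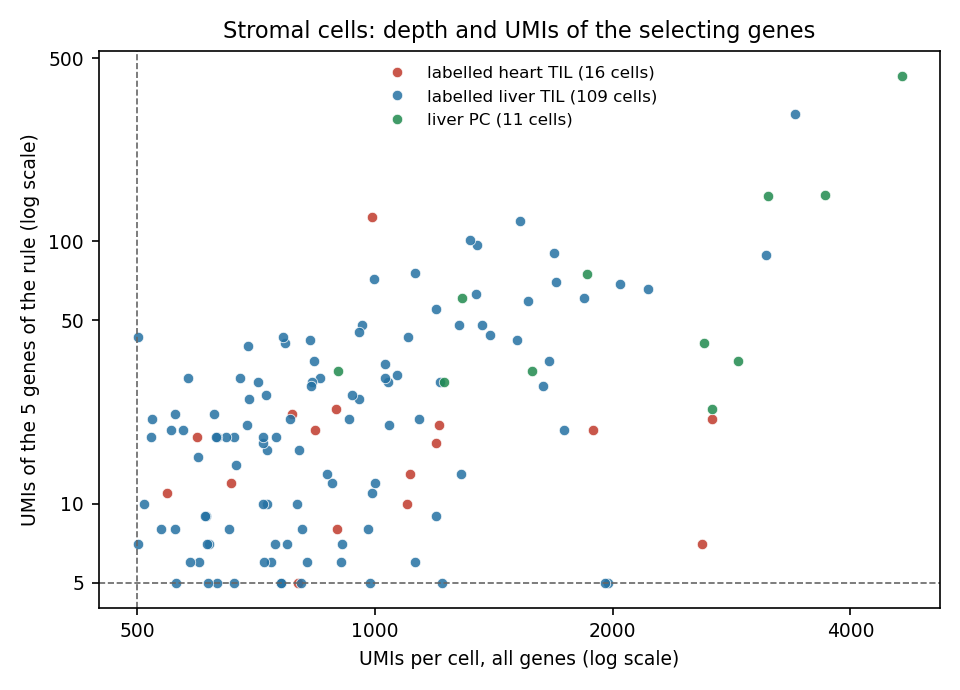
Each point is 1 of the 136 stromal cells, with its UMIs over all genes on the x axis and its UMIs of the 5 selecting genes on the y axis, both on log scales, coloured by library. The dashed lines mark the limits of 500 and 5 UMIs. The 11 cells of liver PC lie at 23 to 427 UMIs of the selecting genes, while cells of the labelled liver TIL reach down to the limit of 5.

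The selecting genes themselves describe the rule and not a finding. Their UMIs per stromal cell had a median of 17.5 (5 to 124) in the labelled heart TIL, 19 (5 to 305) in the labelled liver TIL and 41 (23 to 427) in liver PC. In the other cells of these libraries the 5 genes summed to 91.9, 647 and 78.0 CPM. The part of this level in the shares of stromal cells was not tested. At the limit of 5 UMIs lay 1, 11 and 0 cells, and just outside it, at 4 UMIs, lay 2, 20 and 0 cells. The limit on T cell transcripts took out 9, 51 and 11 cells that had passed the matrix rule, and 6, 59 and 6 of the stromal cells held the 1 T cell UMI allowed. *Dcn*, which encodes the small proteoglycan decorin, stood at 6446, 5054 and 5695 CPM in the labelled heart TIL, the labelled liver TIL and liver PC. *Mgp*, an inhibitor of calcification, stood at 1652 CPM (1122 to 2344), 7650 CPM (7136 to 8191) and 2867 CPM (2258 to 3588). *Col3a1* and *Col1a1*, fibrillar collagens, were at 5115 and 2397 CPM in the labelled heart TIL, but a single cell gave 56 of the 96 UMIs of *Col3a1* and 30 of the 45 UMIs of *Col1a1* there.

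Genes outside the rule were set beside the other cells of the same library, as a description and with no test. Of these, 15 genes stood at least 10-fold above the other cells in all 3 libraries, where 8.84%, 9.14% and 19.8% of the genes counted were that far above. At least 2-fold above the other cells stood 16.5%, 19.2% and 33.6% of the genes counted, and at least 2-fold below them 3.96%, 5.3% and 7.95%. Among the 15 genes at least 10-fold above were the matrix and matrix-associated genes *Bgn*, *Ccdc80*, *Fn1*, *Lum*, *Serpinh1* and *Sparc*. The protease inhibitors *Timp1* and *Serping1*, the complement protease *C1s1*, *Clu*, *Gpx3*, *Igfbp4*, *Igfbp7* and *Rarres2* were also among the 15. *Acta2*, smooth muscle actin, is a listed marker of these cells that was not part of the rule, and it was found in 5 of 16, 24 of 109 and 4 of 11 stromal cells. Some markers of narrower types, the pericyte genes *Rgs5*, *Notch3* and *Cspg4*, the stellate cell genes *Lrat* and *Reln* and the activation marker *Fap*, had no UMI in any of the 136 cells. Fibroblast genes were not scarce. The 16 genes of that list summed to 5328, 10163 and 8713 CPM in the labelled heart TIL, the labelled liver TIL and liver PC. In the other cells they summed to 2664, 4295 and 3166 CPM. Of those counted, 1 of 2, 8 of 10 and 7 of 8 were at least 2-fold above the other cells, and 0, 1 and 0 at least 2-fold below. Checked for the label only, *Pdgfra*, a fibroblast receptor, had 3, 7 and 9 UMIs, and *Pdgfrb*, a pericyte and stellate cell receptor, had 0, 5 and 1 UMIs. The 9 pericyte genes together had 0, 7 and 3 UMIs, and the 11 endothelial genes 1, 23 and 1, few beside the matrix UMIs.

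Transcripts of leukocytes and red cells were present in the stromal cells and are given here once because they touch the lists below. The 12 macrophage genes summed to 16622, 10740 and 2452 CPM in stromal cells of the labelled heart TIL, the labelled liver TIL and liver PC, against 22185, 21782 and 16276 CPM in the other cells. The 12 T and NK cell genes summed to 7246, 4486 and 2565 CPM, against 22984, 11908 and 18961 CPM. The 8 B and plasma cell genes summed to 2717 CPM (2023 to 3572), 13727 CPM (13036 to 14446) and 981 CPM (641 to 1437), against 4826, 29215 and 4008 CPM, and *Igkc*, an antibody light chain, had a UMI in 13 of 16, 107 of 109 and 8 of 11 stromal cells. The 7 erythroid genes gave 2925 UMIs, at least 1 in each of the 109 stromal cells, in the labelled liver TIL (27222 CPM), but 1 UMI in the labelled heart TIL and 0 in liver PC, where 3 counts would be 113 CPM. In the other cells of these libraries the erythroid genes summed to 51936 CPM (labelled liver TIL), 352 CPM (labelled heart TIL) and 20.0 CPM (liver PC). The part of this RNA in the differences below was not tested.

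**Figure D2:**
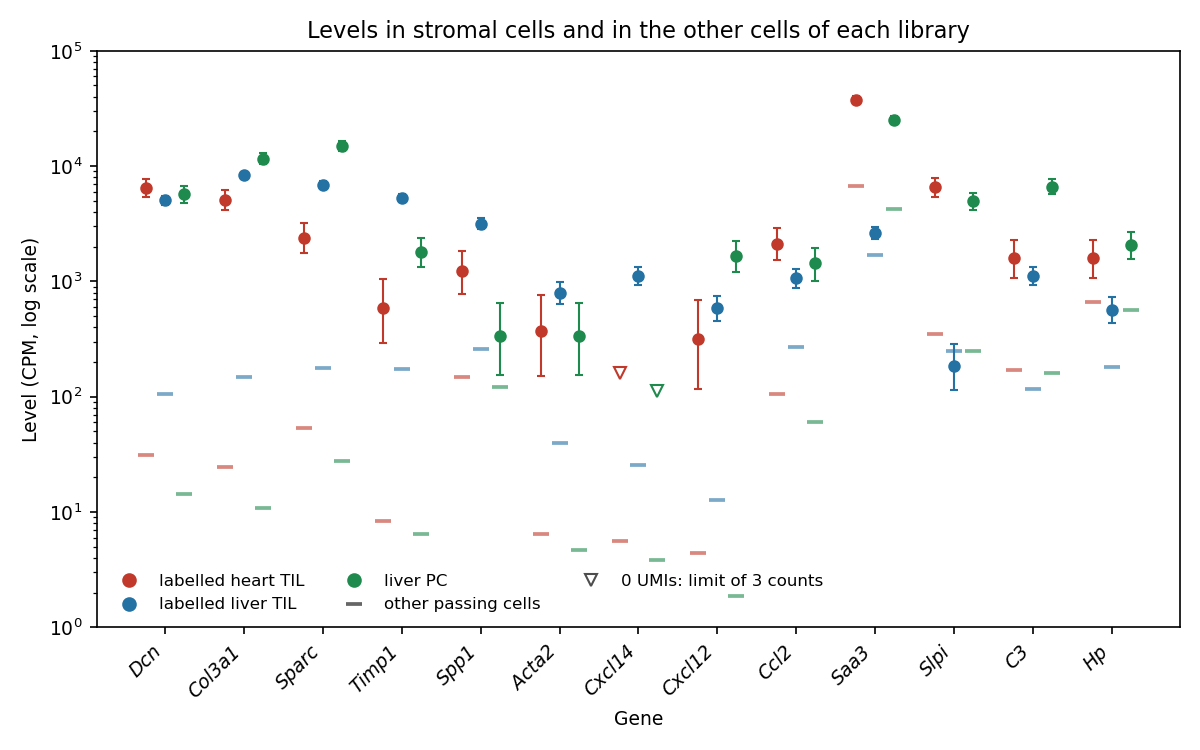
Summed level in CPM (log y axis) of 13 genes in stromal cells of the 3 libraries, as filled circles with exact 95% Poisson intervals, which cover counting error only. Horizontal dashes give the level in the other cells of the same library, and open triangles mark genes with 0 UMIs at the limit of 3 counts. *Dcn* and *Col3a1* were used by the rule and are shown as a description, *Sparc* lies highest in liver PC, *Timp1* and *Spp1* highest in the labelled liver TIL, and *Saa3* and *Slpi* far lower in the labelled liver TIL than in the other two.

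Matrix genes outside the rule were lowest in the labelled heart TIL and highest in liver PC. The 5 selecting genes summed in the same order, to 18593, 29642 and 39754 CPM, and the part of the selection in this order was not tested. The list held 66 collagens, matrix glycoproteins and remodelling genes, and its summed level was 12946 CPM (11369 to 14680) in the labelled heart TIL, 30293 CPM (29261 to 31352) in the labelled liver TIL and 44620 CPM (42113 to 47237) in liver PC. In the other cells the same genes summed to 419, 1316 and 365 CPM. The summed log2 ratio of the labelled liver TIL over the labelled heart TIL was 1.23 (1.04 to 1.42), with 20 of 43 genes higher and 2 lower, or 12 and 2 with genes at 0 set to the limit, where 25.5% and 7.05% of all genes were (16.4% higher with the limit). The median log2 ratio of the list was 0.94. The summed ratio was 2.32 with a floor of 1000 UMIs a cell and 0.79 with cells thinned to 500 UMIs, both outside its counting interval. In liver PC against the labelled liver TIL, 17 of 46 genes were higher and 11 lower (9.4% and 29.9% of all genes), and the summed log2 ratio was 0.56 (0.46 to 0.66). Against the labelled heart TIL, 19 of 23 genes were higher and 1 lower (24.3% and 18.1% of all genes), with a summed log2 ratio of 1.79 (1.58 to 1.99). When the cell with most of each gene's UMIs was left out, 19 genes stayed higher and 0 lower between the TIL libraries. In liver PC 10 stayed higher and 11 lower than in the labelled liver TIL, and 13 and 0 than in the labelled heart TIL.

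Several structural genes were highest in liver PC. *Sparc*, a collagen-binding glycoprotein, stood at 2397 CPM (1749 to 3208) in the labelled heart TIL, 6906 CPM (6418 to 7421) in the labelled liver TIL and 14823 CPM (13394 to 16363) in liver PC, and had a UMI in 12 of 16, 92 of 109 and 11 of 11 cells. Its log2 ratio of liver PC over the labelled liver TIL was 1.10, or 1.69-fold without the liver PC cell that gave 138 of 393 UMIs. That ratio kept its sign in 13 of 13 alternatives and passed 2-fold in 8. *Fbln2*, a fibulin of elastic fibres, had 2, 53 and 39 UMIs, and liver PC was 2.98-fold above the labelled liver TIL (log2 1.57, 0.94 to 2.20). *Fn1*, fibronectin, was at 906, 856 and 2753 CPM, 3.22-fold higher in liver PC than in the labelled liver TIL, or 1.82-fold without the liver PC cell that gave 39 of its 73 UMIs there. These 3 genes showed the order of the list, except that *Fn1* did not separate the TIL libraries, whose log2 ratio was -0.08 (-0.84 to 0.76). *Eln*, elastin, had 0, 9 and 45 UMIs, but 34 of the 45 in liver PC came from a single cell, and its level there was 1697 CPM with and 446 CPM without that cell. *Col5a1*, a minor fibrillar collagen, had 0, 18 and 27 UMIs, of which 1 cell gave 18 in liver PC. Among the 14 collagens outside the rule, 4 of 4 counted were higher in liver PC than in the labelled heart TIL (24.3% of all genes). Without each gene's top cell 3 stayed so, and *Col5a2* turned to a log2 ratio of -0.044 with cells thinned to 500 UMIs. Against the labelled liver TIL 5 of 10 were higher and 2, *Col4a2* and *Col8a1*, lower (9.4% and 29.9% of all genes), of which 2 and 2 stayed so without each gene's top cell.

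Of the 21 remodelling genes, 10 of 16 were higher and 1 lower in the labelled liver TIL than in the labelled heart TIL (25.5% and 7.05% of all genes), or 7 and 1 with genes at 0 set to the limit (16.4% of all genes higher). Liver PC had 4 of 16 higher and 5 lower than the labelled liver TIL (9.4% and 29.9% of all genes). The list summed to 3250 CPM (2486 to 4175) in the labelled heart TIL, 11633 CPM (10997 to 12297) in the labelled liver TIL and 10071 CPM (8899 to 11354) in liver PC, and *Timp1* gave 572 of its 1250 UMIs in the labelled liver TIL. Among the members higher in liver PC than in the labelled liver TIL were *Mmp14*, a membrane-bound collagenase (log2 1.54, 0.40 to 2.66), and *Adamts2*, which trims procollagen (log2 2.11, 0.97 to 3.28). *Timp1*, the inhibitor of matrix metalloproteinases that is known to mark activated fibroblasts, was at 586 CPM (293 to 1049) in the labelled heart TIL, 5323 CPM (4896 to 5778) in the labelled liver TIL and 1810 CPM (1335 to 2400) in liver PC. It was 9.08-fold higher in the labelled liver TIL than in the labelled heart TIL (log2 3.18, 2.33 to 4.19) and 2.94-fold higher than in liver PC. Thinned to 500 UMIs a cell, 4 of 16, 67 of 109 (61.5%) and 4 of 11 (36.4%) stromal cells held a *Timp1* UMI, against 0.394%, 8.66% and 0.218% of T cells of the same libraries; without thinning the shares were 43.8%, 72.5% and 81.8%. *Mmp3*, a stromelysin that cleaves proteoglycans, had 1, 59 and 1 UMIs, and *Ctgf*, a matricellular growth factor, had 1, 66 and 1. The log2 ratio of the labelled liver TIL over the labelled heart TIL was 3.34 (0.83 to 8.69) for *Mmp3*, and *Ctgf* was 11.5-fold higher there. *Mmp2*, a gelatinase, went the other way between the liver labels, with 21 UMIs in the labelled liver TIL and 23 in liver PC, a log2 ratio of 2.14 (1.23 to 3.08). *Spp1*, osteopontin, was at 3164 CPM (2837 to 3519) in the labelled liver TIL, spread over 43 of 109 cells, whereas all 23 UMIs in the labelled heart TIL came from 1 cell and liver PC had 9 UMIs. *Prg4*, lubricin, had 31 UMIs in the labelled liver TIL and none in the others, which put it at least 1.81-fold above the labelled heart TIL and at least 2.55-fold above liver PC.

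Contractile genes were sparse in all 3 libraries, and the intervals of their summed levels overlapped. The 19 genes summed to 2557 CPM (1886 to 3391) in the labelled heart TIL, 3071 CPM (2749 to 3421) in the labelled liver TIL and 2829 CPM (2225 to 3546) in liver PC, and the other cells reached 1744, 1461 and 1944 CPM. The summed log2 ratio of the labelled liver TIL over the labelled heart TIL was 0.26 (-0.18 to 0.73), with 4 of 8 genes higher and none lower, or 3 with genes at 0 set to the limit (25.5% and 7.05% of all genes, or 16.4% higher with the limit). In liver PC 1 of 8 genes was lower than in the labelled liver TIL and none higher (29.9% and 9.4% of all genes), and the single gene counted against the labelled heart TIL lay within 2-fold. The lower gene was *Acta2*, which lay within 2-fold (log2 -0.92) without the top cell of the labelled liver TIL, as did its ratio between the TIL libraries (log2 0.78). *Acta2* was at 373 CPM (150 to 768), 800 CPM (640 to 988) and 339 CPM (155 to 644), far above the 6.46, 39.4 and 4.70 CPM of the other cells. *Tagln*, transgelin, had 0, 16 and 2 UMIs, and *Myh11*, the myosin of mature smooth muscle, had none.

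A minority of the stromal cells in each library held several smooth muscle transcripts. The limit, at least 3 UMIs of *Acta2*, *Tagln*, *Myl9*, *Tpm2*, *Actg2*, *Cnn1* and *Myh11*, was chosen after the data were seen. It was met by 1 of 16 cells (6.25%) in the labelled heart TIL, 15 of 109 (13.8%) in the labelled liver TIL and 2 of 11 (18.2%) in liver PC. Of the 15 cells, 2 lay at the limit and 4 further cells lay 1 UMI below it. In these 15 cells *Cxcl14* was at 3571 CPM (2731 to 4587) and in the other 94 at 653 CPM (497 to 842), but only 3 of the 15 cells held any of it and 1 of them gave 48 of the 61 UMIs. Without that cell the level was 932 CPM (496 to 1593). *Saa3* was at 234 CPM (63.8 to 599) in the 15 cells and 3087 CPM (2736 to 3472) in the 94. *Timp1* was at 7317 CPM in the 15 cells and 4947 CPM in the 94. These values describe cells of 1 sample that were picked by their *Acta2* and related transcripts.

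Chemokines summed to similar levels in the TIL libraries and to a lower level in liver PC, while single genes differed. The 23 genes, 21 of them in the tables, summed to 11135 CPM (9676 to 12751) in the labelled heart TIL, 11308 CPM (10681 to 11962) in the labelled liver TIL and 8449 CPM (7378 to 9631) in liver PC. The other cells lay above, at 14154, 13399 and 11398 CPM. For the labelled liver TIL over the labelled heart TIL, 7 of 17 genes were higher and 3 lower, or 6 and 3 with genes at 0 set to the limit, with a summed log2 ratio of 0.02 (-0.19 to 0.24). Of all genes 25.5% were higher and 7.05% lower. The sign of that summed ratio changed with the choice of cells and when the level of the other cells was subtracted. Liver PC had 4 of 17 chemokines higher and 10 lower than the labelled liver TIL (9.4% and 29.9% of all genes), and 4 of 10 higher and 3 lower than the labelled heart TIL (24.3% and 18.1%). Its summed log2 ratio was -0.42 (-0.63 to -0.21) over the labelled liver TIL and -0.40 (-0.68 to -0.12) over the labelled heart TIL. Without each gene's top cell, none stayed higher and 7 lower than the labelled liver TIL, and 2 higher and 2 lower than the labelled heart TIL, while between the TIL libraries 7 stayed higher and 2 lower.

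Several chemokines stood well above the other cells of their library. *Cxcl12*, the ligand of CXCR4 that retains leukocytes in stroma, was at 320 CPM (117 to 696), 586 CPM (451 to 750) and 1660 CPM (1206 to 2228) in the labelled heart TIL, the labelled liver TIL and liver PC, and at 4.38, 12.8 and 1.88 CPM in the other cells. Its ratio of liver PC over the labelled liver TIL was 2.83-fold, but 1.39-fold without the liver PC cell that gave 25 of 44 UMIs, which left 813 CPM there. *Ccl2*, which draws monocytes, was at 2131 CPM (1522 to 2902), 1061 CPM (875 to 1275) and 1433 CPM (1014 to 1967), against 106, 272 and 60.2 CPM in the other cells. The *Ccl2* ratio between the TIL libraries lay at the 2-fold limit (log2 -1.01, -1.54 to -0.45) and turned to 0.23 when cells were thinned to 500 UMIs. *Cxcl14*, a chemokine of resting epithelia and fibroblasts, had 120 UMIs in 22 cells of the labelled liver TIL and none in the other libraries. That put it at least 6.99-fold above the labelled heart TIL and at least 9.87-fold above liver PC, although 1 cell gave 48 of the UMIs and the level without it was 690 instead of 1117 CPM. *Cxcl5*, a neutrophil chemokine, had 17, 10 and 9 UMIs and was 9.73-fold higher in the labelled heart TIL than in the labelled liver TIL, with 12 of the 17 UMIs in 1 cell, or 3.04-fold higher without it. *Ccl7*, a monocyte chemokine next to *Ccl2* in function, was at 533, 1210 and 566 CPM. *Ccl5*, known from T and NK cells, was lower in stromal cells (4209, 2289 and 1245 CPM) than in the other cells (9209, 4473 and 6623 CPM), and *Cxcl2* and *Ccl8* in both TIL libraries also lay below the other cells.

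**Figure D3:**
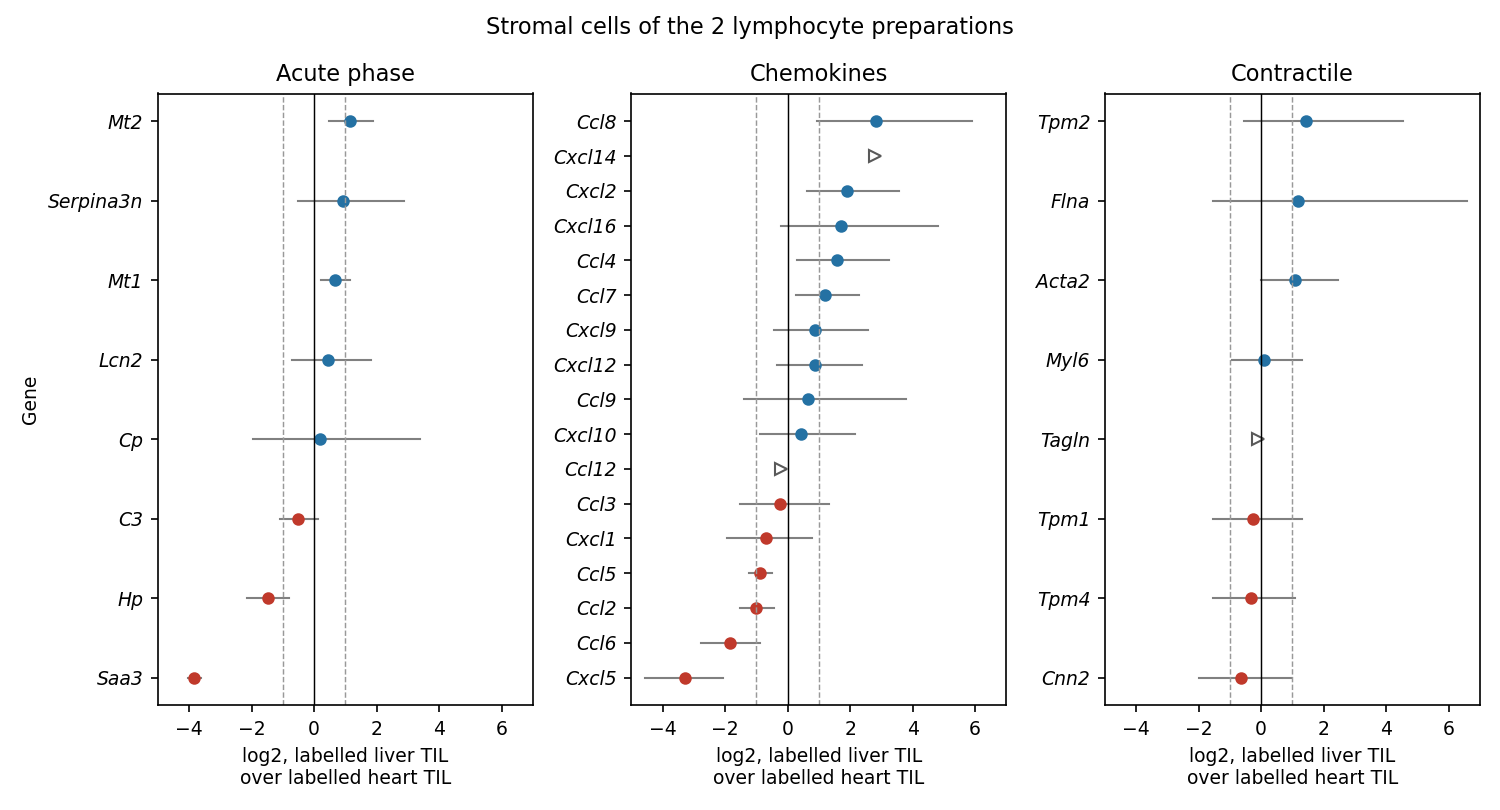
Log2 ratio of the labelled liver TIL over the labelled heart TIL (x axis) for the acute phase, chemokine and contractile genes with at least 10 UMIs in the larger sum, 1 row per gene, with 95% counting intervals as lines. Open triangles are lower bounds for genes without a UMI in the labelled heart TIL, and dashed lines mark 2-fold. *Saa3* lies at -3.83 and *Cxcl5* at -3.27, *Cxcl14* has a lower bound of 6.99-fold, and the contractile genes have wide intervals, with *Acta2*, *Tpm2* and *Flna* past 2-fold at 1.10, 1.43 and 1.17.

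Acute phase genes summed to a lower level in the labelled liver TIL than in either other library. The 26 genes summed to 45871 CPM (42858 to 49040) in the labelled heart TIL, 11531 CPM (10898 to 12191) in the labelled liver TIL and 41753 CPM (39329 to 44287) in liver PC, against 10010, 3011 and 6999 CPM in the other cells. The summed log2 ratio was -1.99 (-2.12 to -1.86) for the labelled liver TIL over the labelled heart TIL and 1.86 (1.74 to 1.97) for liver PC over the labelled liver TIL, and -0.14 (-0.27 to -0.01) for liver PC over the labelled heart TIL. Counted by gene the picture was mixed. Of 8 genes, 1 was higher and 2 lower in the labelled liver TIL than in the labelled heart TIL (25.5% and 7.05% of all genes), and the median log2 ratio of the list, 0.31, had the opposite sign to the sum, while *Saa3* alone gave 37560 of the 45871 CPM in the labelled heart TIL. Liver PC had 5 of 9 genes higher and none lower than the labelled liver TIL (9.4% and 29.9% of all genes), and 5 of 8 higher than the labelled heart TIL (24.3%). Without each gene's top cell, 1 stayed lower between the TIL libraries, *Saa3*, and 3 higher in liver PC than in the labelled heart TIL.

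*Saa3*, the serum amyloid A of connective tissue and macrophages, was at 37560 CPM (34838 to 40438) in the labelled heart TIL, 2634 CPM (2336 to 2959) in the labelled liver TIL and 25082 CPM (23212 to 27063) in liver PC. It was 14.3-fold higher in the labelled heart TIL than in the labelled liver TIL (log2 -3.83, -4.04 to -3.63), and 9.52-fold higher in liver PC than in the labelled liver TIL. Per stromal cell, *Saa3* took a median of 2.62% of the UMIs in the labelled heart TIL (0 to 11.9), 0.0661% in the labelled liver TIL (0 to 5.57) and 0.854% in liver PC (0 to 8.00). It took at least 1% of the UMIs in 9 of 16, 6 of 109 and 4 of 11 cells, so the ranges overlapped and single cells of the labelled liver TIL reached the levels of the others.

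The other cells of each library also held *Saa3*, and in the same order. They stood at 6744, 1703 and 4235 CPM, so that stromal cells were 5.57-fold, 1.55-fold and 5.92-fold above them. Cells with at least 2 UMIs of the T cell genes held 5520, 1302 and 3510 CPM, and cells with at least 5 UMIs of the macrophage genes *C1qa*, *C1qb* and *C1qc* held 10823, 2217 and 7373 CPM, by limits set after the data were seen. Thinned to 500 UMIs, 81.2%, 42.2% and 90.9% of stromal cells held a *Saa3* UMI, against 83.2%, 42.9% and 63.8% of T cells. The shares before thinning were 87.5%, 55.0% and 90.9%, against 92.7%, 58.0% and 87.7%. In both TIL libraries the share of stromal cells with a UMI was therefore not above that of T cells. The paper proposes *Saa3* as specific to liver allografts when T cells are compared. It also reports higher *Saa3* in stromal cells, hepatic stellate cells among them, of liver allografts than of heart and kidney allografts. In the stromal cells here *Saa3* was highest in the labelled heart TIL, but organ genes ran against the TIL labels. No direction between organs is therefore read from these values, and which cells made the *Saa3* RNA was not tested here. The median share per stromal cell stood above the pooled level of the other cells in the labelled heart TIL and in liver PC. In the labelled liver TIL, where 49 of 109 stromal cells had no *Saa3* UMI, the median stood below. A median over cells and a pooled level are unlike measures, and pooled against pooled the stromal cells there were 1.55-fold above.

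*Slpi*, an inhibitor of neutrophil elastase chosen by its fold, went with *Saa3*. It was at 6553 CPM (5446 to 7819) in the labelled heart TIL, 186 CPM (114 to 287) in the labelled liver TIL and 4941 CPM (4131 to 5863) in liver PC, in 10 of 16, 14 of 109 and 6 of 11 cells. The labelled heart TIL was 35.2-fold and liver PC 26.5-fold above the labelled liver TIL, whose level lay below the 249 CPM of its other cells. A single cell gave 42 of 123 UMIs in the labelled heart TIL and 69 of 131 in liver PC, where 2623 CPM were left without it. *Hp*, haptoglobin, which binds free haemoglobin, was at 1598 CPM (1078 to 2282), 568 CPM (434 to 729) and 2074 CPM (1563 to 2700), against 664, 180 and 565 CPM in the other cells. A single cell gave 17 of its 30 UMIs in the labelled heart TIL and 27 of 55 in liver PC, and 740 and 1172 CPM were left without it. *Mt2*, a metallothionein, had another order, at 1066, 2355 and 2527 CPM.

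*C3*, the central complement component, was highest in liver PC, at 1598 CPM (1078 to 2282), 1117 CPM (926 to 1335) and 6638 CPM (5694 to 7695) in the labelled heart TIL, the labelled liver TIL and liver PC. Liver PC was 5.94-fold above the labelled liver TIL and 4.15-fold above the labelled heart TIL, and each of its 11 cells held a UMI. *C3* was above the other cells in each library, which stood at 171, 116 and 161 CPM. Thinned to 500 UMIs, 68.8%, 29.4% and 72.7% of stromal cells held a *C3* UMI, against 8.39%, 4.71% and 6.04% of T cells. The complement list had 4 of 11 genes higher and 3 lower in liver PC than in the labelled liver TIL (9.4% and 29.9% of all genes, so the lower count is near the general share). The higher ones were *C3*, *C1s1*, *C1ra* and *C4b*, early components known from fibroblasts and hepatocytes, and the lower ones were *C1qa*, *C1qb* and *C1qc*, which macrophages make. Without each gene's top cell 3 stayed higher and 3 lower, and *C1s1* was 1.72-fold higher. Between the TIL libraries none of 11 complement genes was higher and 1 was lower in the labelled liver TIL (25.5% and 7.05% of all genes). The lower one was *Clu*, at 596 CPM against 1652 CPM.

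**Figure D4:**
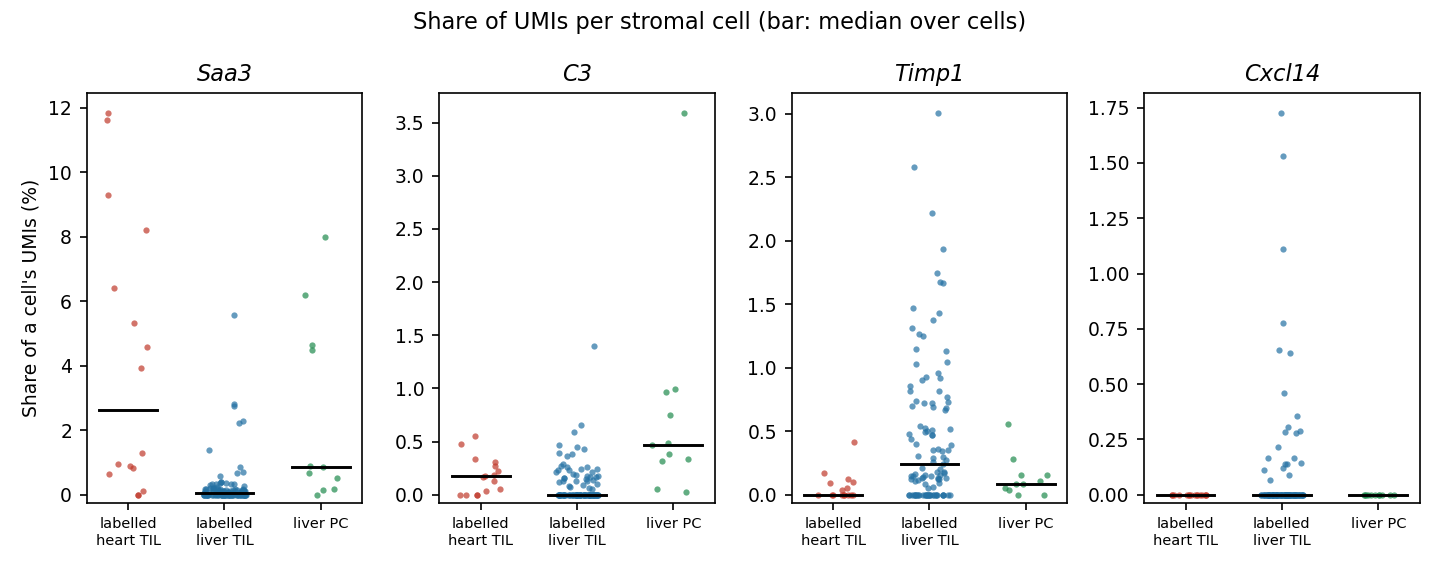
Share of a cell's UMIs (y axis, percent, linear and scaled per panel) given by *Saa3*, *C3*, *Timp1* and *Cxcl14*, 1 point per stromal cell and a bar at the median of each library. *Saa3* medians are 2.62%, 0.0661% and 0.854% from left to right, *Cxcl14* is at 0 in every cell outside the labelled liver TIL, and the ranges of *Saa3*, *C3* and *Timp1* overlap between libraries.

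Upstream sequences of 4 genes are shown because *Saa3* and *Slpi* were low, and *Timp1* and *Cxcl14* high, in stromal cells of the same library. On GRCm38 the protein-coding genes span chr7:46711998-46715700 (*Saa3*), chr2:164354070-164389095 (*Slpi*), chrX:20870166-20874735 (*Timp1*) and chr13:56288643-56296551 (*Cxcl14*). Each sequence is the 250 bases before the RefSeq start on GRCm38.p6, read on the gene's strand, with capitals marking a match to TTGCNNAA on either strand, the C/EBP letters, and by the GENCODE spans the *Saa3* window runs into the start of the gene and the *Slpi* window lies wholly inside the gene, so neither is purely upstream of every transcript.
*Saa3*, chr7:46715677-46715926, minus strand: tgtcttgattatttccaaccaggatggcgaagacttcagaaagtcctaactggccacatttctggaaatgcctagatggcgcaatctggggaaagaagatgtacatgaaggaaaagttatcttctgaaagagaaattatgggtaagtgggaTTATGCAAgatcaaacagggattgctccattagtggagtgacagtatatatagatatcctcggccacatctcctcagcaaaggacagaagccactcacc
*Slpi*, chr2:164356508-164356757, minus strand: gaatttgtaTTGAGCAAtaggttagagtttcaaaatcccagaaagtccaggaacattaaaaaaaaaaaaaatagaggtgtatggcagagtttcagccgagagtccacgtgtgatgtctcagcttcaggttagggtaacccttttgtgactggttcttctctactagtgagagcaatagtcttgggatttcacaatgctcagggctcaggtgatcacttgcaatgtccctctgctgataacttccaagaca
*Timp1*, chrX:20869916-20870165, plus strand: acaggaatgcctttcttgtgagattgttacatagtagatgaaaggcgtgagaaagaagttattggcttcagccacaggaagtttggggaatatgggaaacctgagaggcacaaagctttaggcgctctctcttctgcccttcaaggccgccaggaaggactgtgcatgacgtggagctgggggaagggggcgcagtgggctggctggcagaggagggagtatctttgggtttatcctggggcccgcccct
*Cxcl14*, chr13:56296552-56296801, minus strand: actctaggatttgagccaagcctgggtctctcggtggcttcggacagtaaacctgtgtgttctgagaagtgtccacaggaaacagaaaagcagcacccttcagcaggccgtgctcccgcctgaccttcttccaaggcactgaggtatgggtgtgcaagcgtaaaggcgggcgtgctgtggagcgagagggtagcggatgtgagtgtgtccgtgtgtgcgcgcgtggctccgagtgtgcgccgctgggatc
The search found TTATGCAA in *Saa3* and TTGAGCAA in *Slpi*, and no match in *Timp1* or *Cxcl14*, and 9.56% of 32851 promoter windows of this length held the motif. TGANTCA (AP-1 letters, both strands, in 6.75% of windows) and TATAAA (gene strand, 7.59%) were in none of the 4. A match describes letters in a window and not a bound site, and these 4 genes were picked by their values.

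Beyond the lists, the genes with the largest ratios were taken by a rule of size, with at least 30 UMIs in the larger sum and at least 2-fold above the other cells. Among those higher in the labelled liver TIL than in the labelled heart TIL were *Cxcl14*, *Prg4*, *Ctgf*, *Mmp3* and *Timp1* from the lists, and *Ndufa4l2*, *Dpt*, *Cd9* and *Gm15459*. *Prg4* and *Ndufa4l2* ranked there only through the added 1 CPM, since both had no UMI in the labelled heart TIL and were at least 1.81-fold and 1.98-fold higher. *Dpt*, dermatopontin of fibroblasts, had 1, 45 and 17 UMIs in the labelled heart TIL, the labelled liver TIL and liver PC, and *Cd9*, a tetraspanin, had 1, 44 and 3. The 7 genes that met the rule in the other direction were *Slpi*, *Saa3*, *Ctla2a*, *Tmem176b*, *Hp*, *Clu* and *Ccl2*. Without the cell of the labelled heart TIL that held most of the gene's UMIs, *Hp* and *Ccl2* lay within 2-fold, at log2 ratios of -0.38 and -0.48. *Ctla2a*, a cathepsin inhibitor, was at 3143 CPM (2393 to 4055), 298 CPM (204 to 420) and 641 CPM (374 to 1027), and the labelled heart TIL was 10.6-fold above the labelled liver TIL, or 6.91-fold without the cell that gave 22 of its 59 UMIs. *Tmem176b*, a membrane protein known from myeloid cells, was at 2238 CPM (1613 to 3025), 614 CPM (475 to 781) and 2225 CPM (1694 to 2871), so it shared the low level in the labelled liver TIL with *Saa3* and *Slpi*. Its level in the other cells, 62.2, 78.8 and 49.2 CPM, did not have that order.

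Of 26 cytokine and growth factor genes, 3 of 6 counted were higher and 1 lower in liver PC than in the labelled liver TIL, where 9.4% and 29.9% of all genes were. With genes at 0 set to the limit the counts were 3 and 0, beside 23.9% of all genes lower. *Igfbp4*, which binds insulin-like growth factors, was at 586 CPM (293 to 1049), 521 CPM (394 to 677) and 2150 CPM (1628 to 2785), 4.13-fold higher in liver PC than in the labelled liver TIL. *Gas6*, a ligand of the TAM receptors, had 8, 28 and 33 UMIs, 4.78-fold higher in liver PC than in the labelled liver TIL (2.79-fold without the cell that gave 16 of the 33), a direction that turned (log2 -0.96) when cells with a T cell UMI were left out. Liver PC was also led over the labelled liver TIL by *Slpi*, *Eln*, *Saa3*, *C3*, *Hp*, *Tmem176b* and *Fn1*, and by *Col1a2*, which the rule used. Those led by the labelled liver TIL over liver PC were *Cxcl14*, *Crip2*, *Prg4*, *Ctgf*, *Mmp3*, *Spp1*, *Chil1*, *Nupr1*, *Gbp4* and *Tm4sf1*. Of these, *Crip2* and *Prg4* had no UMI in liver PC and ranked that high only through the added 1 CPM. *Nupr1*, a stress-induced nuclear protein, was at 373, 1005 and 151 CPM in the order of the libraries above, and *Crip2*, a LIM domain protein, had 2, 34 and 0 UMIs. Over the labelled heart TIL, liver PC was led by *Eln*, *Fbln2*, *Sparc*, *Cxcl12*, *Rcn3*, *Fstl1*, *C3*, *Igfbp4* and *Serpinh1*, and by the selecting gene *Col1a2*, and *Ctla2a* alone met the rule in the other direction.

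Interferon-induced and MHC class I genes hardly differed in sum. The 30 genes summed to 45232, 44616 and 41338 CPM in the labelled heart TIL, the labelled liver TIL and liver PC, with 3 of 25 higher and 1 lower in the labelled liver TIL than in the labelled heart TIL (25.5% and 7.05% of all genes). None of 15 passed 2-fold between liver PC and the labelled heart TIL (24.3% and 18.1% of all genes). Against the labelled liver TIL, 1 of 25 was higher, *Irf7*, which was not without its top cell, and 8 lower in liver PC (9.4% and 29.9% of all genes). Of genes that mark stromal cells of 1 organ, the 14 stellate cell genes gave 28, 126 and 55 UMIs, in 10 of 16, 58 of 109 and 11 of 11 cells. They summed to 1492, 1173 and 2074 CPM, against 139, 267 and 104 CPM in the other cells. The 10 heart fibroblast genes gave 15, 64 and 6 UMIs and summed to 799, 596 and 226 CPM, against 145, 95.2 and 120 CPM. The 10 mesothelial genes, not tied to 1 organ, summed to 586, 205 and 981 CPM, against 79.7, 3.20 and 49.2 CPM in the other cells. They were found in 2 of 16, 8 of 109 and 5 of 11 cells, and 1 cell gave 8 of 11, 10 of 22 and 11 of 26 UMIs. That cell also held 41 *Saa3* and 42 *Slpi* UMIs in the labelled heart TIL, and 55 and 15 in liver PC. The stellate list had 2 genes counted between the TIL libraries, of which 0 were higher and 1 lower in the labelled liver TIL (25.5% and 7.05% of all genes). The lower one was *Ecm1* (14 and 37 UMIs in the labelled heart TIL and the labelled liver TIL), but 1 cell gave 7 of the 14 UMIs, the log2 ratio was -0.33 without it, and it passed 2-fold in 8 of 13 alternatives. *Tcf21*, a transcription factor of heart fibroblasts and also of stellate cells, was at 0, 112 and 38 CPM.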

How the data were processed

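Single cells of 8 libraries were profiled by Microwell-seq, and 3 of them, liver PC and the libraries labelled heart TIL and liver TIL, were used for all comparisons. Per the labels and the study's methods, STAR was used by the authors for alignment to GRCm38. Reads whose barcode was of poor quality or that aligned more than once had been dropped, and UMIs of a gene 1 mismatch apart had been merged with Drop-seq tools. The submitters' processing notes also name bcl2fastq, and the release of the GENCODE annotation is not given in the sources used here. They deposited raw UMI counts per gene and barcode, 10000 barcodes a library, with no normalization, and reads from overlapping or near-identical genes could be lost or shared by that counting.

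From these counts, cells were selected by the rule given in the report. UMIs were summed over the stromal cells of a library, scaled to CPM of their total, and compared as log2 ratios with a pseudocount of 1 CPM. Levels have exact Poisson intervals, ratios exact conditional binomial intervals and shares exact Clopper-Pearson intervals, all at 95%, and a count of 0 is set to a limit of 3 counts over the group. Shares of cells with a UMI were also taken after thinning to 500 UMIs with seed 0, which kept every stromal cell. No doublet caller was run. A cell that holds RNA of another type was kept unless it had more than 1 T cell UMI. Some genes are not reported here. Genes whose ratios are described were those of fixed lists with at least 10 UMIs in a library, and beyond them up to 10 per direction and comparison by ratio. Cell type markers under 10 UMIs are named for their scarcity only. The stromal cells, gene lists and comparisons were chosen with earlier results of these data known. The limits on smooth muscle, T cell and C1q transcripts, and the alternatives named as added, were set after the data were seen. With 1 library per group no test was made. The computation was tested on simulated counts. Promoters came from RefSeq tables (GRCm38.p6) and gene spans from GENCODE. Python 3.11.15, numpy 2.4.6, scipy 1.17.1, pandas 2.3.3 and matplotlib 3.10.9 were used.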

Additional observations from a re-analysis of the deposited data

Results flagged for a closer look

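Outside the libraries compared, 2 cells of kidney TIL met the rule for stromal cells, among 2004 cells, while the blood libraries and kidney PC held none. The first had 784 UMIs, 17 of them from the selecting genes, and 15 UMIs of *Sparc*. The second had 723 UMIs, 69 from the selecting genes, and 34 UMIs of *Sparc*. Neither held *Saa3* or *Acta2*, and 1 held 1 UMI of *Timp1*. In heart and liver blood a count of 0 allows a share of up to 0.0386% and 0.0440% of cells. In kidney blood it allows up to 0.262%, and in kidney PC, where 1 cell passed the matrix rule but not the T cell limit, up to 0.377%.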

How the results depend on the processing

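No paired analysis was possible because each group was 1 library and the labels number no replicates. The cause of the shifts below was not tested, beyond fewer cells or genes entering. The numbers of stromal cells (16, 109 and 11 in the labelled heart TIL, the labelled liver TIL and liver PC) became 7 and 36 in the TIL libraries with a floor of 1000 UMIs. They became 10, 50 and 5 with no T cell UMI allowed, 10, 77 and 11 without cells holding more immune than matrix UMIs (both added after the data were seen), and 1, 9 and 1 with no T cell UMI and at most 2 UMIs of 9 immune genes, where too few cells were left for gene values.

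Genes at least 2-fold higher in the labelled liver TIL than in the labelled heart TIL (453) numbered 257 with cells thinned to 500 UMIs, 5328 with no minimum of UMIs, 110 with a minimum of 30, 237 with no T cell UMI and 69 with summed profiles thinned to 1 total. Lower ones (125) numbered 65, 1884, 28, 55 and 63 in the same order, 51 with size factors and 340 after the level of the other cells was subtracted. For liver PC over the labelled liver TIL, higher genes (168) numbered 79, 2434, 40, 81 and 81, then 85 with the floor of 1000 and 301 after subtraction. Lower ones (534) numbered 281 with the floor, 4703, 167, 319 and 92 with no minimum, a minimum of 30, no T cell UMI and thinned sums. For liver PC over the labelled heart TIL, higher genes (125) numbered 24, 3081, 34 and 77 with thinned cells, no minimum, a minimum of 30 and no T cell UMI. Lower ones (93) numbered 28, 2091, 19 and 34, then 59 with at least 10 UMIs of the selecting genes, 53 without shared barcodes and 38 without the cells of more immune UMIs. Genes 2-fold above the other cells (54, 341 and 148) numbered 22, 186 and 27 with thinned cells, 1962, 2746 and 2728 with no minimum, 17, 114 and 39 with a minimum of 30, 32, 191 and 75 with no T cell UMI, and 34 and 32 in the labelled heart TIL with the floor and without the cells of more immune UMIs.

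For the summed log2 ratios between the TIL libraries, matrix (1.23) was 2.32 with the floor, 0.98 without shared barcodes, 0.79 with thinned cells, 1.58 with size factors, 0.83 with no T cell UMI, 1.01 without the deepest cell of each library, 0.80 without the cells of more immune UMIs and 0.82 with cells weighted equally. Contractile genes (0.26) were at 0.82 with the floor and -0.16 without the cells of more immune UMIs. Chemokines (0.02) were at -0.41 with the floor, -0.24 with at least 10 UMIs of the selecting genes, -0.20 without shared barcodes and after subtraction, 0.36 with thinned cells, 0.38 with size factors and 0.39 with no T cell UMI. Acute phase genes (-1.99) were at -1.76 with the floor, -1.84 without shared barcodes, -2.21 with thinned cells, -1.64 with size factors, -2.21 without the cells of more immune UMIs and -2.19 with equal weights.

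Of 1807 values of single genes under alternatives, 13 turned their direction, 174 left the counting interval and 1620 did not. With thinned cells, *Ccl2* between the TIL libraries turned to 0.23. For liver PC over the labelled liver TIL, *Cxcl1* turned to -7.38 and *Ctla2a* to -1.08 with thinned cells, and *Cxcl9* to -0.16 without the deepest cell. With no T cell UMI, *Ccl8* turned to 0.49, *Cxcl5* to -7.01, *Gas6* to -0.96 and *Ctla2a* to -0.34 there, and *Ccl8* to 8.25 after subtraction. For liver PC over the labelled heart TIL, *Col5a2* turned to -0.044, *Cxcl5* to 0.54 and *Igf1* to -0.46 with thinned cells, and *Gas6* to -1.44 with no T cell UMI. *Saa3*, *Slpi*, *Timp1*, *Ctla2a*, *Tmem176b* and *Cxcl14* between the TIL libraries stayed past 2-fold in 13 of 13 alternatives, *Saa3* between 3.48 and 5.05 in size. The 16 and 11 cells of the smaller libraries limit every gene: 3 counts are 160 and 113 CPM there, and 27.9 CPM in the labelled liver TIL.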
